A study of Mus musculus with 4 samples.

Results

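The JAK kinases and STAT transcription factors were examined in cultured 4T1 cells, a mouse mammary carcinoma line of epithelial type and wild-type genotype, after recombinant IL-17A (rIL17) or phosphate-buffered saline (PBS). They were listed by symbol as a gene family, and no threshold on their values was applied. Of 9 listed genes, 8 were among the 21840 rows of the deposited table: the kinase genes Jak1, Jak2 and Tyk2 and the factor genes Stat2, Stat3, Stat5a, Stat5b and Stat6. Stat4 was not analysed here. Each group had 2 libraries of total RNA, 4 in all, with 17511450 to 17970104 reads assigned to genes if the smallest step of a library's values stands for 1 read. The labels give neither the dose of IL-17A nor the length of treatment. They also do not say whether replicate libraries stem from different cultures; p-values then reflect no more than library-to-library spread, which may be technical.

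JAK kinases are bound to the inner tails of type I and type II cytokine receptors. When a ligand joins the receptor chains the kinases phosphorylate one another, the receptor and then STAT proteins, which pair, enter the nucleus and bind DNA. SOCS proteins are induced by this signal and switch it off. The IL-17 receptor chains are not of this kind: they signal through the adaptor Act1 to NF-kB, C/EBP and MAPK pathways. In the mammary gland STAT5 carries the prolactin signal of milk production and STAT3 acts in the regression of the gland after weaning. RNA abundance, measured here, does not report phosphorylation.

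The genes lie on 5 chromosomes of mm10 (coordinates of GENCODE M21). Stat5b (100780731 to 100850724, minus strand), Stat5a (100859351 to 100885169, plus) and Stat3 (100885098 to 100939540, minus) stand side by side within 158.81 kb of chromosome 11. Stat6 (127642986 to 127660957, plus) and Stat2 (128270559 to 128292849, plus) lie on chromosome 10, Jak1 on chromosome 4 (101152367 to 101265282, minus), Tyk2 on chromosome 9 (21104068 to 21131243, minus) and Jak2 on chromosome 19 (29251828 to 29313080, plus). Stat3 and Stat5a share 72 exonic bases on opposite strands, and 554 exonic bases of Tyk2, 8.07% of its exons, lie under the plus-strand gene 1700084C06Rik. The strand setting of the counting is not given in the sources used here, so reads in these overlaps cannot be assigned with certainty.

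Stat5a and Stat5b are close copies, which bears on how far their counts can be told apart. Of all windows of 50 bases along a coding transcript of Stat5a, 17.1% also occur in a Stat5b transcript, and 7.56% of windows of 100 bases do. No other pair of the listed genes shared a window of 50 bases. The longest identical coding run of the pair is 324 bases. The following stretch of coding positions 835 to 954, counted from 1 at the first base of each coding sequence (GENCODE M21 transcripts), shows the end of that run. Its 1 mismatch, in capitals, is C895T, with the Stat5a base first.

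Stat5a: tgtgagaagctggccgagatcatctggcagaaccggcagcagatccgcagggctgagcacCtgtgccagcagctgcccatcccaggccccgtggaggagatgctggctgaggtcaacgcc

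Stat5b: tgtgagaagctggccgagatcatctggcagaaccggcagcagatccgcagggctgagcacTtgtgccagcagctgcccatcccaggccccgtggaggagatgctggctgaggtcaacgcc

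Promoters (250 bases before to 50 bases after each RefSeq start, GRCm38.p6) were present for all 9 genes. They were searched on both strands for TTCNNNGAA, the palindrome that STAT dimers bind (GAS), and for GAAANNGAA, the core of the interferon-stimulated response element; matches of one may overlap the other. The palindrome occurred in the promoters of 0 of the 9 genes, against 9.55% of all 27025 genes (8.3% of 32851 promoters, since some genes have several). The response element core occurred in 2, Stat2 and Stat4, against 9.76% of all genes (8.56% of promoters). In Stat2 it reads TTCAGTTTC on the printed strand and begins 221 bases before the start. The Stat2 promoter, with this match in capitals, is chr10:128270248-128270547 on the plus strand. The promoter of Stat3, shown because Stat3 had the smallest p of the 8, is chr11:100939491-100939790 on the minus strand and has neither set of letters. A match describes the sequence and not binding, and the absence of one says only that these letters are not in the window.

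Stat2: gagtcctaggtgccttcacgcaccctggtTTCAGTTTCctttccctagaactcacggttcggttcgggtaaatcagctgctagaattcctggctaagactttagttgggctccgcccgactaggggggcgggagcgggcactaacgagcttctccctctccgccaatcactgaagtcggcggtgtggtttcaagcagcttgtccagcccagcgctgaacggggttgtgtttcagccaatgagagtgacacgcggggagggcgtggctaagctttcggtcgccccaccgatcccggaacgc

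Stat3: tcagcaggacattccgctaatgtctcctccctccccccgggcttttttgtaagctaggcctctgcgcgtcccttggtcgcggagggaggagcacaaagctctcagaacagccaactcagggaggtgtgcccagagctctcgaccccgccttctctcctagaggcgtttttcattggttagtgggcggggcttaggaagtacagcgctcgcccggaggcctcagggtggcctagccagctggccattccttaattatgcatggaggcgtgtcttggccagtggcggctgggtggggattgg

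Depth differed little between libraries, but their composition did. A chi-square comparison of replicates took the smallest step of a library's values as 1 read. It gave a statistic per gene of 14.21 for PBS and 3.77 for rIL17, where sampling alone gives about 1 if that step holds. PBS replicate 2 stood apart along the GC content of transcripts, with AT-rich transcripts low. For the 729 genes below 40% GC it lay 0.47 below PBS replicate 1 at the median (log2). In this class rIL17 replicate 2 lay 0.15 below rIL17 replicate 1, and the median group difference was 0.54, higher in rIL17. The GC trend thus also ran between the groups, and leaving out PBS replicate 2 need not remove it. The 3 genes that differed most in p are also given without PBS replicate 2. So are the medians of gene lists that leaving it out moves by over 1.5 times. Epithelial keratin genes were abundant (Krt8 had 25498 to 32665 normalized counts, Krt18 15966 to 20159), while the basal keratin gene Krt14 had at most 5.89. The remaining epithelial markers, named after their values were seen, were lower than Krt8 and Krt18. Krt7 had 2484 to 3146, Cldn3 602 to 650, Cdh1 139 to 208, Epcam 76.6 to 135 and Cldn4 at most 19.6. The summed level of 8 epithelial markers was 52883 to 56864 in PBS and 44815 to 46687 in rIL17, most of it Krt8 and Krt18. Of 10 lymphocyte markers 1 was in the table, summing to at most 2.01, and the pan-leukocyte gene Ptprc had 0 in each PBS library, 3.02 and 2.01 in the rIL17 libraries. The 7 myeloid markers in the table summed to 125 to 127 in PBS and 128 to 134 in rIL17. Most of this was Cd68, named after its values were seen (115 and 118 in PBS, 108 and 127 in rIL17). The 8 fibroblast and endothelial markers summed to 2451 to 2562 and 2975 to 2978, nearly all of it Pdgfra. Whether these shifts had a part in the differences below was not tested. In a culture, fewer cells with a transcript and less of it per cell cannot be told apart.

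Stat3 and Jak2 had more RNA and Tyk2 had less RNA in the rIL17 libraries, while the ratios of Jak1, Stat2, Stat5a, Stat5b and Stat6 lay between 0.956 and 1.04. The differences were 1.35-fold for Stat3, 1.30-fold for Jak2 and 0.817-fold for Tyk2. All 8 genes passed the filter on low values (group mean of 1 normalized count or more in PBS or rIL17). In limma over all 20677 genes tested, 0 of the 8 passed at an adjusted p below 0.05, as did 0 of all genes (0.0%); limma-voom also called 0 of the 8. At an unadjusted p below 0.05 there were 3 of 8 (Stat3, Tyk2 and Jak2), against 12.8% of all genes. Under a stricter filter (10 or more normalized counts in each library of PBS or of rIL17, and a mean CPM of 1 or more) 0 of the 8 passed and 0.807% of 12515 genes did, with Stat3 next to the threshold (limma adjusted p = 0.0545). Without PBS replicate 1 this filter called 3 of the 8 (Stat3, Jak2 and Tyk2), against 22.2% of all genes, and without PBS replicate 2 it called Stat3 alone, against 5.52%. It called 0 of the 8 without rIL17 replicate 1 (0.00798% of all genes) or rIL17 replicate 2 (0.008%). A fit with the replicate number as a block called 2 (Stat3 and Jak2) together with the stricter filter, against 8.25% of all genes, and the same 2 together with a GC correction, against 1.67%. Log2 fold changes were taken of the normalized count + 1.

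**Figure D1:**
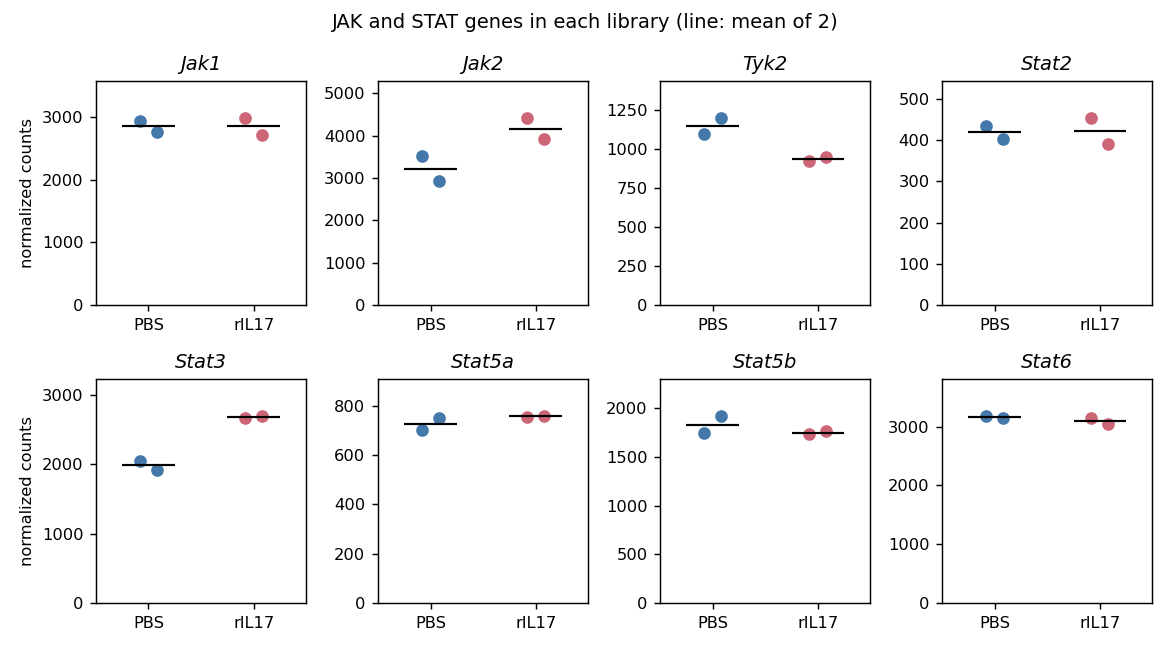
Normalized counts (vertical axes, each starting at 0) of the 8 genes in each of the 2 PBS and 2 rIL17 libraries; points are libraries and lines are group means. Stat3 and Jak2 lie higher in both rIL17 libraries and Tyk2 lower, while the groups of Jak1, Stat2 and Stat5b overlap.

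Among the kinases, Jak2, which serves the receptors of growth hormone, prolactin and erythropoietin and the second chain of the interferon-gamma receptor, had 3514 and 2919.6 normalized counts in PBS replicates 1 and 2. It had 4408 and 3925 in rIL17 replicates 1 and 2. The groups did not overlap, but the gap from the higher PBS to the lower rIL17 library was smaller than the difference between the PBS libraries. The means were 3217 ± 421 and 4167 ± 341 (SD, n = 2 libraries), a log2 fold change of 0.38 (SE 0.12, 95% confidence interval 0.02 to 0.73, limma adjusted p = 0.373, and 0.173 under the stricter filter). Without PBS replicate 2 the log2 fold change was 0.24.

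Tyk2, the kinase held by the first chain of the type I interferon receptor and by the shared chain of IL-12 and IL-23 receptors, had 1099.9 and 1197 normalized counts in PBS, against 925 and 951 in rIL17. The rIL17 libraries were both under the PBS libraries. The means were 1149 ± 68.9 and 938 ± 18.3 (SD, n = 2 libraries), a log2 fold change of -0.29 (SE 0.07, 95% confidence interval -0.48 to -0.10, limma adjusted p = 0.373, and 0.168 under the stricter filter). Without PBS replicate 2 it was -0.23.

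Jak1, the kinase of the gp130 receptors of the IL-6 family and of both interferon systems, had 2939.5 and 2754 normalized counts in PBS, against 2975 and 2718 in rIL17. The rIL17 libraries lay on either side of the PBS libraries. The log2 fold change was -0.001 with a 95% confidence interval of -0.20 to 0.20, and its sign turned with the processing.

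Among the factors, Stat3, which carries signals of the IL-6 family and of the growth hormone and granulocyte growth factor receptors, had 2052 and 1917 normalized counts in PBS, against 2664 and 2695 in rIL17. The rIL17 libraries lay close together and both exceeded the PBS libraries by more than the PBS libraries differed. The means were 1984 ± 95.01 and 2679 ± 21.8 (SD, n = 2 libraries), a log2 fold change of 0.43 (SE 0.05, 95% confidence interval 0.28 to 0.59, limma adjusted p = 0.369). Stat3 had the smallest unadjusted p of the 8 (0.00183 in limma). Its log2 fold change was 0.48 without PBS replicate 1, 0.39 without PBS replicate 2, 0.44 without rIL17 replicate 1 and 0.43 without rIL17 replicate 2, and none of these passed at the main filter.

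Stat5a and Stat5b, the prolactin-responsive pair, went to opposite sides of 0 by amounts within their error. Stat5a had 699.6 and 749 normalized counts in PBS, against 755 and 757 in rIL17 (log2 fold change 0.06, 95% confidence interval -0.11 to 0.24). Its rIL17 libraries were both above the PBS libraries, the nearest values being 748.8 and 755.0. Stat5b had 1743 and 1919 in PBS, against 1735 and 1765 in rIL17 (log2 fold change -0.06, 95% confidence interval -0.25 to 0.13), with overlapping groups. Because the pair share long identical stretches, both values are uncertain.

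Stat6, the factor of IL-4 and IL-13, had 3179.9 and 3145.3 normalized counts in PBS, against 3144.5 and 3053 in rIL17. The groups were apart by less than 1 normalized count, and the log2 fold change was -0.03 (95% confidence interval -0.15 to 0.09). Stat2, the interferon factor that works with IRF9, had 435 and 403 in PBS, against 452 and 390.1 in rIL17. Its groups overlapped, with a log2 fold change of 0.01 (95% confidence interval -0.30 to 0.31). These intervals do not show that the genes were unaffected, only how large a change the libraries leave room for.

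In all, the rIL17 libraries were both above the PBS libraries for 3 of the 8 genes (Jak2, Stat3 and Stat5a), as for 25.4% of all genes tested (25.8% under the stricter filter). They were both under them for 2 (Tyk2 and Stat6), against 20.0% of all genes (25.4% under the stricter filter). These counts are near the background and say nothing particular about the 8 genes. Their median log2 fold change was 0.0, beside 0.01 over all genes tested.

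**Figure D2:**
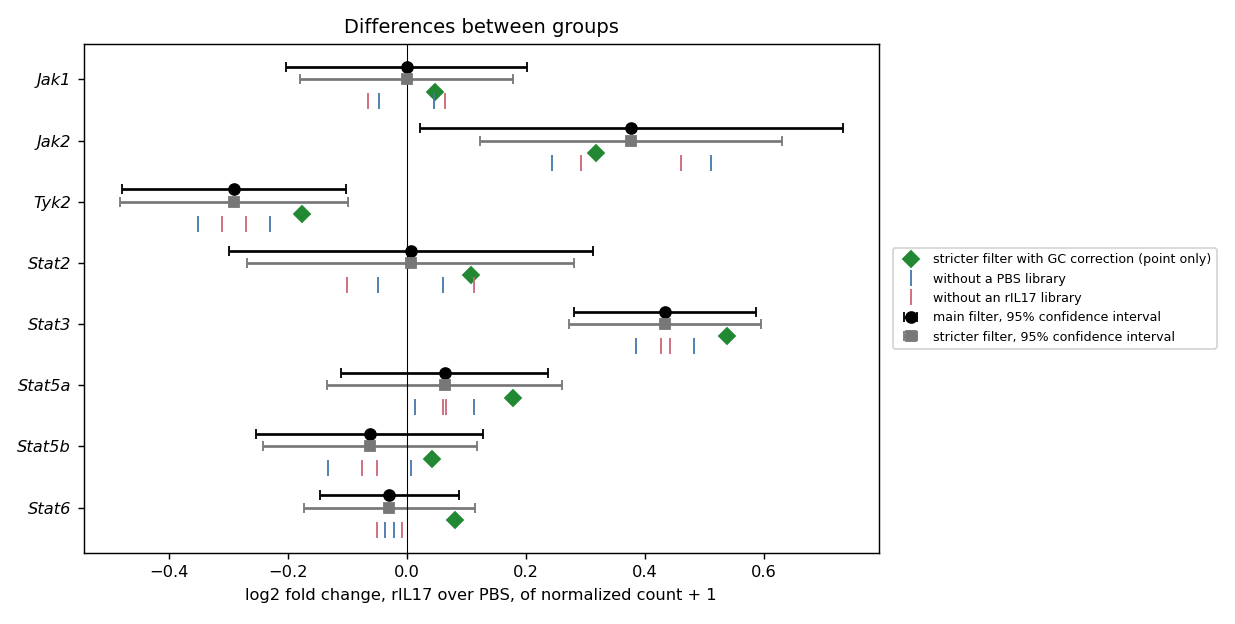
Log2 fold change (horizontal axis, rIL17 over PBS) of the 8 genes with 95% confidence intervals under both filters, as points after GC correction, and as ticks with each library left out. The intervals of Stat3, Jak2 and Tyk2 lie off 0 before adjustment over all genes, and every tick of these 3 genes stays on its own side of 0.

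The GC trend touches these genes unequally. The longest Jak2 transcript has a GC content of 44.3%, and the 2469 genes from 40% to below 45% had a median group difference of 0.19 (log2), about as far from 0 as Jak2 is from that median. The Stat3 transcript, at 52.5%, belongs to a class of 3240 genes with a median of -0.06, and the Tyk2 transcript, at 57.0%, to a class of 2272 genes with a median of -0.06. After a loess correction of each library on GC content, with the stricter filter, the log2 fold change of Stat3 was 0.54 and passed (limma adjusted p = 0.022), as did 2.67% of all genes. Jak2 then had 0.32 (limma adjusted p = 0.0854) and Tyk2 -0.18 (limma adjusted p = 0.236), neither of which passed. The correction moved the Tyk2 value by over 1.5 times. It also moved the median over all genes of the stricter filter, from -0.003 to 0.049.

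**Figure D3:**
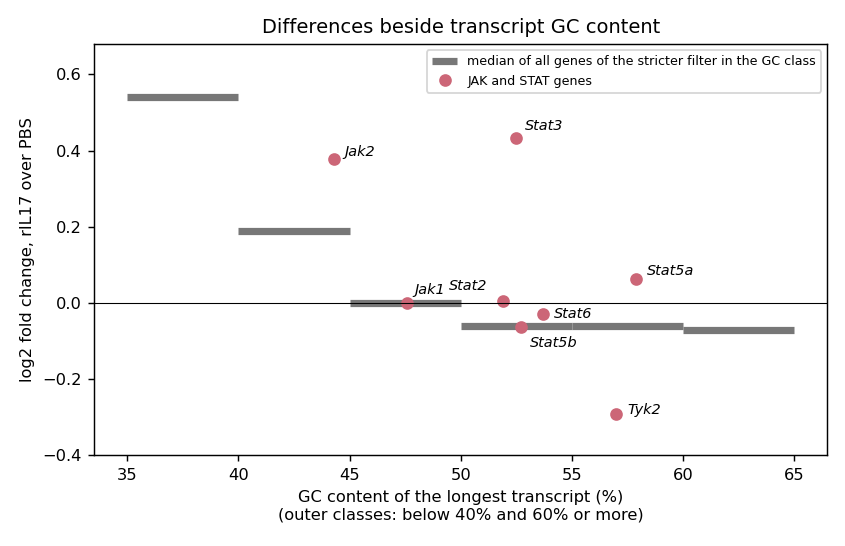
Log2 fold change (vertical axis, rIL17 over PBS) of the 8 genes against the GC content of their longest transcript (horizontal axis, %), with grey bars for the median of all genes of the stricter filter in each GC class. Stat3 lies at 0.43 and Tyk2 at -0.29, against a class median of -0.06 for both, and Jak2 lies at 0.38 against 0.19.

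Levels can be compared between genes only per length, here as normalized counts per kilobase of merged exons. In PBS the order was Stat6 (718 ± 5.56), Jak2 (639.6 ± 83.6), Jak1 (394 ± 18.1), Stat5b (331 ± 22.6), Stat3 (208 ± 9.97), Tyk2 (167 ± 10.03), Stat5a (102 ± 4.88) and Stat2 (70.7 ± 3.81) (SD, n = 2 libraries each). No neighbours in this order overlapped between libraries, the closest values being 714.5 for Stat6 and 698.7 for Jak2. In rIL17 Jak2 stood first (828 ± 67.9) and Stat6 second (704 ± 14.7); the other 6 kept their places, and again no neighbours overlapped. The order rests on the length used. Per kilobase of the longest transcript, Jak2 overlapped Jak1 in PBS and Stat6 in rIL17, Stat5b overlapped Stat3 in PBS (351 and 328), and in rIL17 Stat3 (443) stood above Stat5b (336).

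The make-up of each family within a library does not depend on scaling between libraries. Of the summed level per kilobase of the 3 kinase genes, Jak2 made up 55.2% and 51.1% in PBS, against 61.6% and 60.3% in rIL17. The share of Tyk2 was 12.7% and 15.4% in PBS, against 9.47% and 10.7% in rIL17, and that of Jak1 32.1% and 33.6% against 28.9% and 29.04%. Shares of a family sum to 1 whole, so Jak1, whose own level did not differ in a fixed direction, had a lower share beside a higher Jak2. Of the 5 factor genes, Stat3 made up 15.1% and 14.02% in PBS, against 18.8% and 19.3% in rIL17, and Stat6, the largest, 50.7% and 49.8% against 47.96% and 47.3%. Each of these shares was apart between the groups in every library, also per kilobase of the longest transcript. The Stat5b share was apart too (22.1% and 24.1% against 21.03% and 21.7%), while those of Stat2 and Stat5a overlapped. How often shares of other gene families are apart was not computed. Shares were not corrected for GC content, and those of Jak2 and Tyk2 also differed between the PBS libraries.

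**Figure D4:**
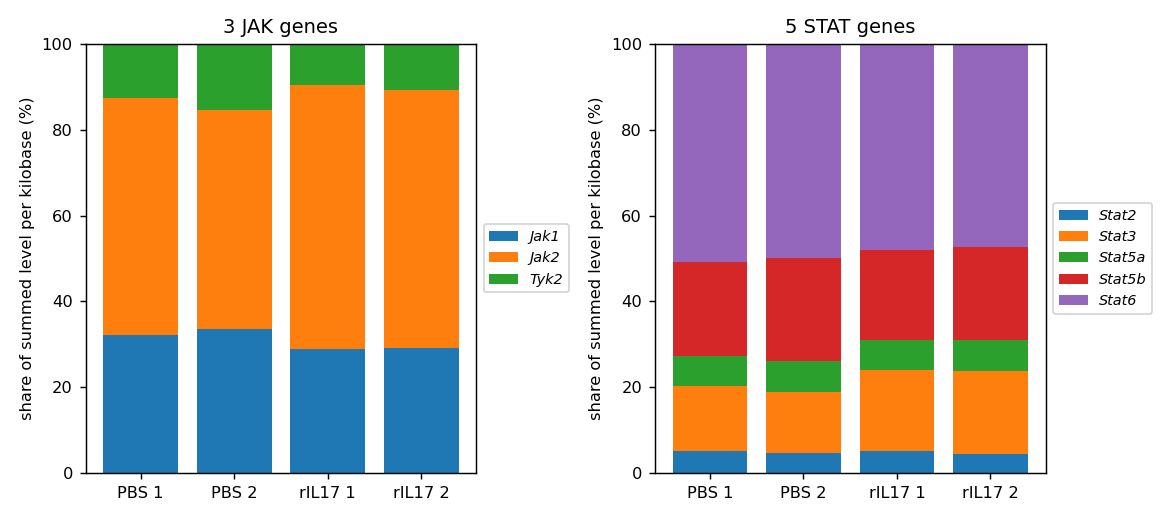
Stacked shares (vertical axis, % of the family's summed normalized counts per kilobase of merged exons) of the 3 kinase genes and the 5 factor genes in each library. The Jak2 and Stat3 segments are larger in both rIL17 libraries, with Stat3 at 18.8% and 19.3% against 15.1% and 14.02%.

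Among 10263 other genes averaging 100 or more normalized counts, those whose 4 centred log2 values lay nearest to those of Stat3 were Plekha3 (Euclidean distance 0.036 over the 4 libraries), Tgfbr3 (0.039) and Il4ra (0.058). In all 38 genes lay within a distance of 0.1 and 403 within 0.2.

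The receptor chains that hold JAK kinases were measured for 28 of 39 listed genes. Under the stricter filter 1 of 20 rose and 0 fell (0.623% and 0.184% of all genes), and at the main filter 0 passed. The median log2 fold change was -0.10 at either filter. At the main filter it was 0.01 without PBS replicate 1, -0.16 without PBS replicate 2 and 0.05 without rIL17 replicate 2. With GC correction it was 0.003, where the median over all genes was 0.067. The sign of the list's median was thus not settled. The one that rose was Osmr, the oncostatin M receptor chain that pairs with gp130: it had 565 and 466 normalized counts in PBS, against 1337 and 1135 in rIL17 (log2 fold change 1.26, SE 0.13, limma adjusted p = 0.0200 under the stricter filter). Without either rIL17 library 0 genes of any pathway list passed under the stricter filter, while 31 passed without PBS replicate 1, where 22.2% of all genes did, and 20 without PBS replicate 2, where 5.52% did. The partner of Osmr, Il6st, which encodes gp130 and is named after its values were seen, had 4970.5 and 4814 against 5069.6 and 4627, with overlapping groups. Il4ra, the chain that calls on STAT6, had 532 and 500.2 against 688 and 732 (0.46, adjusted p = 0.092 under the stricter filter) and did not pass. Il15ra had 383 and 364 against 276 and 286 (-0.41, adjusted p = 0.154 under the stricter filter) and did not pass.

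Other chains that pair with these kinases, named here after their values were seen, set the members beside their receptors. Ghr, a receptor of Jak2, had 958 and 765 normalized counts in PBS, against 1321 and 1177 in rIL17. Its transcript has a GC content of 40.9%, in the class whose median difference was 0.19. Prlr and Epor, also Jak2-dependent receptor genes, had at most 3.01 and 9.05, near or little above the 3 counts taken as the floor. Ifnar1, the receptor chain of Tyk2, had 2069 and 2024 against 2249 and 2080.04. Ifngr2 had 1016 and 1135 against 928 and 833. None of these passed under either filter.

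Of the genes that restrain the pathway, all 20 listed were measured; under the stricter filter 1 of 19 rose and 0 fell (0.623% and 0.184% of all genes), and at the main filter 0 passed. The median log2 fold change was 0.06, and 0.07 under the stricter filter; at the main filter it was 0.04 without PBS replicate 2 and 0.04 without rIL17 replicate 1. Socs3, the inhibitor that binds gp130 and JAKs and is itself a STAT3 target, rose from 1376 and 1397 to 2433 and 2413 normalized counts (log2 fold change 0.81, SE 0.06, limma adjusted p = 0.0114 under the stricter filter). Usp18, which shields the type I interferon receptor from its JAK, had 69.7 and 55.7 in PBS, against 28.1 and 26.1 in rIL17 (-1.17, adjusted p = 0.112 under the stricter filter). Socs5 had 1557 and 1395 against 1926 and 1805 (0.34, adjusted p = 0.14 under the stricter filter); neither of the latter passed.

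Among 11 partners and cofactors 0 passed under either filter, and the median log2 fold change was -0.06 at both. At the main filter it was -0.02 without PBS replicate 1, -0.04 without PBS replicate 2 and 0.015 with GC correction, which turned its sign. With that correction the median over all genes was 0.067. Stam, an adaptor that binds JAK kinases, had 1044 and 933 normalized counts in PBS, against 1446 and 1309.8 in rIL17; its transcript has a GC content of 39.8%, in the class whose median difference was 0.54. Irf9, the DNA-binding partner of STAT2, had 506 and 453 against 369.9 and 359. Nmi, a protein that binds STATs, had 524 and 517 against 457 and 421. For Irf9 and Nmi the rIL17 libraries were both under the PBS libraries, as for 5 of the 11 in all, against 20.0% of all genes. They were both above them for 2 of the 11, Stam among them, against 25.4%.

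Of the STAT3 targets 18 of 19 were measured and 15 were higher in rIL17. The 15 include Pim1 (log2 fold change 0.003) and Il10 (at most 2.01 normalized counts), while Junb (-0.003) was among those lower. These 3 genes are named after their values were seen. The rIL17 libraries were both above the PBS libraries for 12 of 18, against 25.4% of all genes. They were both under them for 2, against 20.0%. Under the stricter filter 4 of 16 rose and 0 fell (0.623% and 0.184% of all genes), and at the main filter 0 passed. The median log2 fold change was 0.35, and 0.15 under the stricter filter, which left out Lrg1 and Il10 for their few counts. At the main filter it was 0.17 without PBS replicate 2 and 0.205 without rIL17 replicate 2. Socs3, described above, was among the 4 that rose. Bcl3, an atypical IkB gene, rose from 775 and 764 to 1374.2 and 1374.0 normalized counts (log2 fold change 0.84, limma adjusted p = 0.0118 under the stricter filter). Cebpd, an acute-phase transcription factor gene, rose from 911 and 1008 to 2332 and 2441 (1.31, adjusted p = 0.00547). Lbp, encoding a lipopolysaccharide-binding protein and named after its values were seen, rose from 250.2 and 248 to 427 and 445 (0.81, adjusted p = 0.0369). NF-kB and C/EBP factors also act on several of these genes, and earlier results on these libraries were known when the list was drawn up, so it is not independent evidence. Myc, also named after its values were seen, had 3844 and 3961 normalized counts in PBS, against 3396 and 3552 in rIL17.

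ISGF3 is the complex that STAT2 and IRF9 form with another STAT on interferon-stimulated genes. Of its 24 targets, 22 were lower in rIL17 and 2 higher, with a median log2 fold change of -0.51 (-0.56 under the stricter filter). The rIL17 libraries were both under the PBS libraries for 18 of 24, against 20.0% of all genes. Under the stricter filter 2 of 23 fell and 0 rose (0.184% and 0.623% of all genes), and at the main filter 0 passed. Those 2 were Ifi27, from 1716 and 1685 to 1213 and 1249.6 normalized counts (log2 fold change -0.47, limma adjusted p = 0.0455 under the stricter filter), and Oasl2, from 646 and 661 to 390.04 and 424 (-0.68, adjusted p = 0.0423 under the stricter filter). Bst2, encoding tetherin, had 1246 and 1294 against 978 and 975 (adjusted p = 0.0858 under the stricter filter) and did not pass. Stat2 itself showed no such shift, with 435 and 403 against 452 and 390.1. Lower interferon targets in these libraries had been seen before this list was drawn up.

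The STAT5 and STAT6 targets showed 0 passing genes under either filter. Of 9 STAT5 targets measured, 8 had a log2 fold change above 0. These include Pim1 (0.003) and Tnfsf11 (0.004, at most 2.01 normalized counts), both named after their values were seen. The rIL17 libraries were both above the PBS libraries for 2 of 9, against 25.4% of all genes. They were both under them for 1, against 20.0%. The median log2 fold change was 0.06. It was 0.04 without PBS replicate 1, 0.10 without PBS replicate 2, 0.12 without rIL17 replicate 1 and 0.19 with GC correction. Bcl6, a transcriptional repressor gene, had 414 and 379.9 normalized counts in PBS, against 474 and 466 in rIL17. Akt1, encoding a survival kinase, had 8555 and 9395 against 7972 and 7915. Socs2, a feedback inhibitor of growth hormone signals, had 332 and 244 against 367 and 325, with overlapping groups. The milk protein gene Wap, named after its values were seen, had at most 3.01. Of 8 tested STAT6 targets 4 were higher and 4 lower. Their median log2 fold change was -0.004, and -0.14 over the 4 of the stricter filter; at the main filter it was -0.02 without PBS replicate 1, -0.10 without PBS replicate 2, 0.16 without rIL17 replicate 1 and -0.07 without rIL17 replicate 2. They included Il4ra (above), Tgm2, encoding tissue transglutaminase (6444 and 7245 against 5748 and 5656), and Socs1 (265 and 278 against 235 and 219). Arg1, an enzyme gene of alternatively activated macrophages, named after its values were seen, had at most 4.01 normalized counts.

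**Figure D5:**
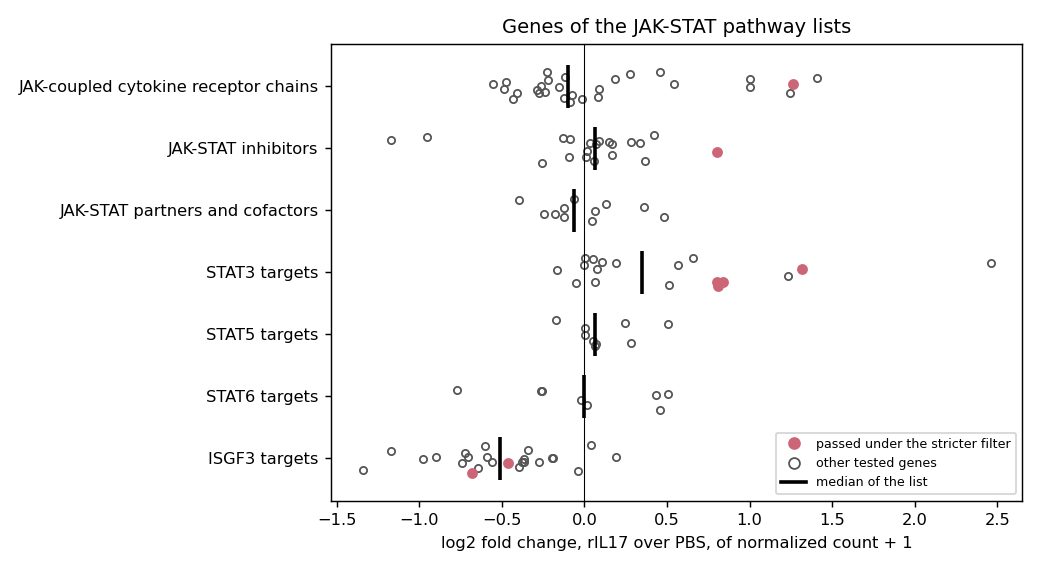
Log2 fold change (horizontal axis, rIL17 over PBS) of every tested gene of the 7 pathway lists (rows), with a black line for the list's median; filled points passed under the stricter filter. The medians run from -0.51 for ISGF3 targets to 0.35 for STAT3 targets, and the filled points are Osmr, Socs3 (in 2 lists), Bcl3, Cebpd, Lbp, Ifi27 and Oasl2.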

How the data were processed

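RNA of 4T1 cells in 2 PBS and 2 rIL17 libraries was sequenced from directional libraries of total RNA, per the labels' protocols. Tools in the submitters' processing notes are HISAT2 2.0.5, featureCounts 1.5.0-p3 and CASAVA, with the build mm10; the strand setting is not given in the sources used here. The deposited values are a normalized signal: in each library 100.0% of values above 0 were whole multiples of 1 step (within 0.001), so they were taken as read counts scaled by the authors with a single factor per library (normalized counts). Because they are normalized, limma 3.58.1 (R 4.3.3) with a mean-variance trend was fitted to log2(normalized count + 1) over all 20677 genes averaging 1 or more in either group, with Benjamini-Hochberg adjustment. This fit takes a single spread per gene for both groups, although replicates differed more in PBS than in rIL17. An exact permutation test of 2 against 2 libraries cannot go below 0.333 and was not used. The fit was tested on simulated data. The simulated libraries had no GC trend between them, so that test does not cover the trend seen here.

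Symbols were matched for 21819 of 21840 rows. Length and GC content came from GENCODE M21, promoters from RefSeq. The members and lists were chosen with earlier results of these data known. The named genes are the members, the 3 genes of each pathway list with the smallest p in the limma fit, and the 3 genes nearest to the member with the smallest p; others are said to be named after their values were seen. Alternatives were upper-quartile scaling, the stricter filter or none, the replicate number as a block, a pseudocount of 0.1, a GC correction, each library left out and, added after seeing the data, limma-voom and combinations with the stricter filter.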

Additional observations from a re-analysis of the deposited data

How the results depend on the processing

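With upper-quartile scaling, no filter, the stricter filter, a pseudocount of 0.1, limma-voom or any 1 library left out at the main filter, 0 of the 8 members passed. Stat3 and Jak2 were higher and Tyk2 lower under every setting run, with log2 fold changes of 0.38 to 0.55, 0.24 to 0.51 and -0.35 to -0.16. Over all genes, limma called 0, and 1 with upper-quartile scaling or limma-voom, 101 with the stricter filter, 334 with the stricter filter and GC correction, 75 with GC correction alone; of list genes it called 0, 7, 13 and 5 (main filter, stricter filter, stricter filter with GC correction, GC correction alone). With GC correction and the stricter filter 1 member passed, Stat3 (0.54). The cause of these changes was not tested. Small values turned sign. Jak1 went to 0.047 (GC correction, stricter filter) and 0.038 (GC correction), and Stat2 to -0.044 (upper-quartile scaling). Stat5b went to 0.042 and 0.056 and Stat6 to 0.08 and 0.10 (GC correction with the stricter and the main filter). These turns were not measured against the median over all genes, which moved as well. That median was 0.049 (GC correction, stricter filter), 0.067 (GC correction) and -0.051 (upper-quartile scaling). It was 0.014 at the main filter and -0.003 at the stricter filter. With single libraries left out the log2 fold changes ran from -0.066 to 0.064 for Jak1 (0.046 without PBS replicate 1), 0.24 to 0.51 for Jak2, -0.35 to -0.23 for Tyk2, -0.101 to 0.112 for Stat2 (-0.049 without PBS replicate 2), 0.385 to 0.483 for Stat3, 0.01 to 0.11 for Stat5a, -0.133 to 0.006 for Stat5b and -0.05 to -0.01 for Stat6. With the stricter filter and 1 library left out, the calls ran from 1 to 2773 over all genes (692 without PBS replicate 2), 0 to 3 among members and 0 to 31 among list genes (20 without PBS replicate 2): without PBS replicate 1 Stat3, Jak2 and Tyk2 passed (adjusted p = 1.11e-05, 5.95e-06 and 0.00472), without PBS replicate 2 Stat3 alone (0.00173), and without either rIL17 library none. A group of 1 library is assumed to vary like the other group. Samples with the same number share only a number (correlation of their deviations 0.157 across genes). With the replicate block 0 genes passed at the main filter; with the block and the stricter filter 1032 genes, 23 list genes and 2 members, Stat3 (0.43, adjusted p = 0.00835) and Jak2 (0.38, adjusted p = 0.0108); with the block and GC correction 345 genes, 13 list genes and 2 members, Stat3 (0.55) and Jak2 (0.345), while Jak1 had 0.038, Stat5b 0.056 and Stat6 0.10. Per kilobase of the longest transcript the PBS levels were 580.3 for Jak1, 237.9 for Tyk2, 95.2 for Stat2, 328 for Stat3, 183 for Stat5a and 838 for Stat6. With upper-quartile scaling the list medians were 0.014 for inhibitors, -0.112 for partners, 0.014 for STAT5 targets and -0.191 for STAT6 targets; GC correction turned the last to 0.066. With a spacer of 4 bases 1 of the 9 listed genes, Stat2, had the palindrome, against 8.01% of all genes. Both planned count-model tests were not run: values are whole multiples of 1 step, but 3 of the 4 steps lie so near 1 that whole reads were not accepted as recovered. The read totals and the chi-square values of replicates given rest on that step. Depth puts the floor of 3 reads near 3 normalized counts, far below every member.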
